A study of Homo sapiens with 6 samples.

Results

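Of 9 genes for fatty acid synthase and the supply of its acetyl-CoA, malonyl-CoA and NADPH, FASN alone passed the test in T24 cells overexpressing RNF112, at 73.2% of its level in vector cells. Of all 14467 genes tested, 18.1% passed, and 8.14% passed with a lower level in the overexpressing cells. The 9 genes were chosen by name from the 23152 genes counted, and they encode the citrate carrier (SLC25A1), ATP citrate lyase (ACLY), the acetyl-CoA synthetases (ACSS1 and ACSS2), the acetyl-CoA carboxylases (ACACA and ACACB), malonyl-CoA decarboxylase (MLYCD), fatty acid synthase (FASN) and cytosolic malic enzyme (ME1). All 9 passed the filter on low counts. ACACA and ACACB had fitted levels of 74.1% and 77.9% of vector without passing the test, and the other genes lay between 88.8% and 109% of vector.

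RNA was sequenced from 3 samples of T24, an established human bladder cancer cell line, carrying the empty vector and from 3 samples overexpressing RNF112 (oeRNF112), an E3 ubiquitin ligase, to look for mechanisms downstream of this gene. Both groups were grown in the same medium with 10% fetal bovine serum. The deposited treatment text speaks of siRNA transfection with Lipofectamine 3000 for all samples, whereas the methods of the study describe plasmids for overexpression. Nothing in the descriptions says that the samples of a group came from separate cultures, so the p-values below measure the spread between these samples, which may be technical.

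Cells make fatty acids in the cytosol from acetyl-CoA, which does not cross the inner mitochondrial membrane. Citrate leaves the mitochondrion through SLC25A1 and is cleaved by ACLY, and acetate offers a second source through ACSS2. ACACA turns acetyl-CoA into malonyl-CoA, which FASN uses to extend the growing chain to palmitate, with NADPH as the reductant. Many tumours run this route strongly, and its genes are known targets of the SREBP transcription factors.

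Total counts were between 40029547 and 41259569 per sample. RNF112 had 27, 19 and 24 counts in vector and 29753, 36963 and 31712 in oeRNF112 (log2 fold change 10.37, SE 0.177), and these may include reads of the introduced construct. Of 14467 genes tested with edgeR's quasi-likelihood test, 2620 (18.1%) had a Benjamini-Hochberg adjusted p under 0.05, which is what "called" means below. Of these, 1442 (9.97% of the genes tested) were higher and 1178 (8.14%) lower in oeRNF112, a split that became 2020 higher and 659 lower with library totals in place of TMM factors, which rescale the libraries, and 1863 higher and 669 lower with limma on log2(RPKM + 1). All 7 epithelial and T24 markers were detected, among them the keratins KRT7, KRT8 and KRT18. KRT18 and KRT7 fell (log2 fold changes -0.51 and -0.48, adjusted p = 0.0130 and 0.0226) and EPCAM rose (0.84, adjusted p = 0.0208), whereas the other 4 were not called. By contrast, 5 of the 7 urothelial differentiation markers present in the table were under 1 RPKM in every sample. All 4 adipocyte markers, 5 of 6 fibroblast markers and all 5 endothelial markers found in the table were also under 1 RPKM throughout. The summed RPKM of 5 leukocyte markers was 17.0 to 18.2 in vector and 33.0 to 40.7 in oeRNF112, where CD68 rose (log2 fold change 1.21), LAPTM5 fell (-0.88) and PTPRC (not called) had 54, 37 and 40 counts in vector and 33, 24 and 26 in oeRNF112. The fibroblast marker PDGFRA rose from 1, 3 and 8 counts to 19, 29 and 19 (log2 fold change 2.36, adjusted p = 0.0194). The part of these marker changes in the results below was not tested. In bulk RNA, fewer cells of a type and less RNA per cell cannot be told apart.

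To compare genes with each other, levels were taken per gene length, as RPKM (reads scaled by gene length and library total). In vector cells, SLC25A1 stood highest at 74.3 ± 8.65 RPKM (SD, n = 3), followed by ACLY at 65.7 ± 5.56, and these neighbours overlapped. ACSS2 followed at 15.6 ± 0.452 and FASN at 15.02 ± 2.06, again with overlapping samples. ME1 at 6.44 ± 0.219, ACACA at 6.07 ± 1.01 and ACSS1 at 4.53 ± 0.303 formed the next group, in which ME1 and ACACA overlapped. ACACB at 0.806 ± 0.0848 and MLYCD at 0.448 ± 0.0247 were the lowest of the set. The cytosolic citrate route was therefore present at higher mRNA levels per length than the acetate route, and the first carboxylase at higher levels than the second. In oeRNF112 the order was kept except that ACSS1 (5.29 ± 0.293 RPKM) stood ahead of ACACA (4.80 ± 0.854), and these neighbours overlapped. ACSS2 (17.8 ± 0.272) and FASN (11.7 ± 1.62), which overlapped in vector, no longer did.

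**Figure D1:**
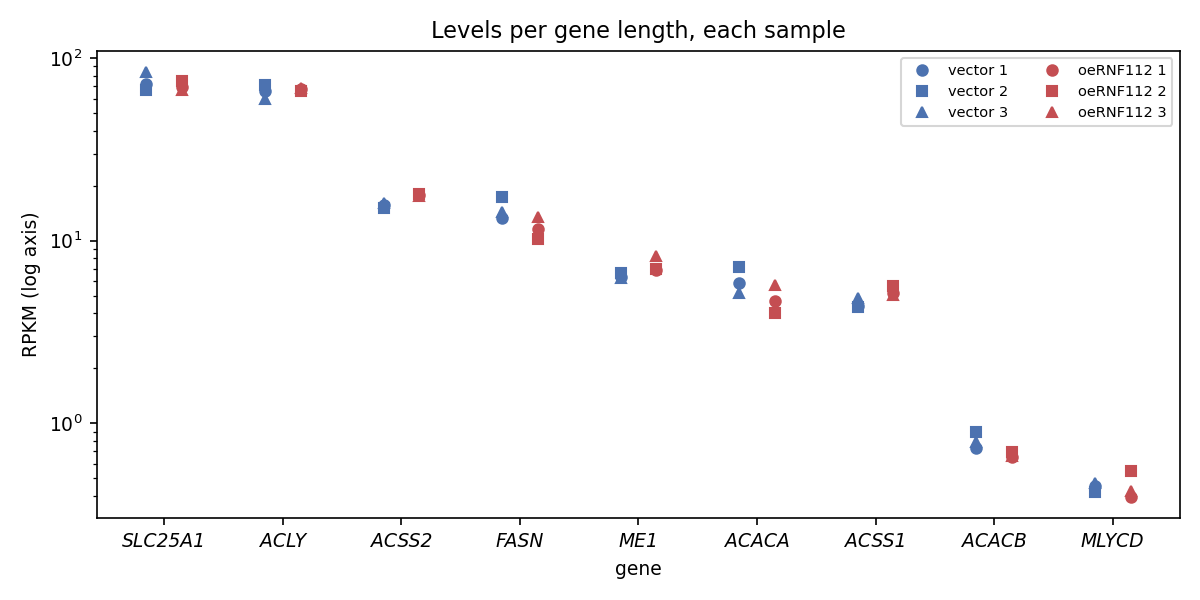
RPKM of each gene (log axis) in the 3 vector samples (blue) and the 3 oeRNF112 samples (red), with circles, squares and triangles for replicates 1, 2 and 3. SLC25A1 and ACLY lie at 59.9 RPKM or more in every sample, and ACACB and MLYCD lie below 1 RPKM.

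The citrate route begins with SLC25A1. It carries citrate out of the mitochondrion, and its gene lies at chr22:19175575-19178830 on the minus strand (GRCh38, GENCODE 29). It had 5380, 4927 and 6135 counts in vector and 5054, 5486 and 4901 in oeRNF112. After scaling by library size with TMM factors (CPM) the means were 139 ± 18.1 and 124 ± 8.99 (SD, n = 3), and the groups overlapped. The log2 fold change was -0.17 (95% interval -0.41 to 0.07, adjusted p = 0.298).

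ACLY, which splits cytosolic citrate into acetyl-CoA and oxaloacetate, lies at chr17:41866908-41930542 on the minus strand. Its counts were 12459, 13093 and 11008 in vector and 12273, 12166 and 12677 in oeRNF112. The normalized levels were 309 ± 21.6 and 297 ± 1.93 CPM, with all 3 oeRNF112 samples inside the range of the vector samples. The log2 fold change was -0.06 (SE 0.0842, 95% interval -0.25 to 0.13, adjusted p = 0.669), so that folds below 0.844 or above 1.09 lay outside the interval. The sign depended on the scaling: it was -0.06 with TMM factors, 0.04 with library totals and 0.04 with limma on log2(RPKM + 1). An antisense gene, AC125257.2, shares 156 bases of ACLY's exons (2.99%) on the opposite strand, and the strand setting of the counting is not given in the sources used here.

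Promoter sequence is shown for ACLY, which splits citrate into acetyl-CoA, and for ACACA and ACACB because both carboxylases had fitted levels below vector. RefSeq windows (GRCh38.p14) matched 8 of the 9 genes, all but FASN, with 14 windows in all, and each printed run is the 250 bases before an annotated start, read 5′ to 3′ on the gene's strand. Capitals mark CANNTG, the E-box core, and CCAAT, each searched on both strands (CCAAT on the other strand reads ATTGG). ACLY has a pair of overlapping windows, of which the first, at chr17:41919023-41919272, is printed and the other is at chr17:41918952-41919201. The ACACA windows are at chr17:37406837-37407086, chr17:37359097-37359346 and chr17:37299768-37300017. Those of ACACB are at chr12:109116337-109116586 and chr12:109154429-109154678.
ACLY window 1: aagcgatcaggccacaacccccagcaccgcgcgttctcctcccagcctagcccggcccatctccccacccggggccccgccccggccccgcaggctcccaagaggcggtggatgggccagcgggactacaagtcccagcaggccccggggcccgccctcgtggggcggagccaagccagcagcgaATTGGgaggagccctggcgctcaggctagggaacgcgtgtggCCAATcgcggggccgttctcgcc
ACACA window 1: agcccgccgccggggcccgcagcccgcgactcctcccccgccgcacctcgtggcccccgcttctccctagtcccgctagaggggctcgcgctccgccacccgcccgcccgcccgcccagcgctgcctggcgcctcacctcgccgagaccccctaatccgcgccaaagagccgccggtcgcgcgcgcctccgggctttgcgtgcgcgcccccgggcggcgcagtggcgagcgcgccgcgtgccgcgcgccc
ACACA window 2: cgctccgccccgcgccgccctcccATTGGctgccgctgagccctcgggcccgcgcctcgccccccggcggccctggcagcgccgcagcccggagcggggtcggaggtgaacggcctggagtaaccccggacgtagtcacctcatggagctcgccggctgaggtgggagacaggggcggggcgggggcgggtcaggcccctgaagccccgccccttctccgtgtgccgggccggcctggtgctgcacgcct
ACACA window 3: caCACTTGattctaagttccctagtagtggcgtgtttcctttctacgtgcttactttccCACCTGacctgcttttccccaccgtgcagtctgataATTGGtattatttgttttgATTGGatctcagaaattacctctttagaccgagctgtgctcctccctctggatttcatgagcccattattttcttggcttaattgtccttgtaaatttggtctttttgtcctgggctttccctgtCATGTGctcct
ACACB window 1: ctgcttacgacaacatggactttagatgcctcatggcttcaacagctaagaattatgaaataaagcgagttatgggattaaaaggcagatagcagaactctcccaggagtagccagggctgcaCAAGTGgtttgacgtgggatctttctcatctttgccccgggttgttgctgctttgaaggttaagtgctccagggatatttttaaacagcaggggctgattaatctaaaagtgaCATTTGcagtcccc
ACACB window 2: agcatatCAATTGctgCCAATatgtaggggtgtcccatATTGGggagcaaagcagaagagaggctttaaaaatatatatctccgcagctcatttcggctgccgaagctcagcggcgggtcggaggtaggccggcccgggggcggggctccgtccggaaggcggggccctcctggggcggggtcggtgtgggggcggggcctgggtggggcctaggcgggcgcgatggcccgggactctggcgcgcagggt

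Of all 35116 windows of this length, CANNTG was found in 61.8% and CCAAT in 32.0%. ACLY window 1 held 0 CANNTG and 2 CCAAT matches, starting 65 and 23 bases before its annotated start, and the other ACLY window held the same matches, at 136 and 94 bases before its own start. ACACA window 1 held neither motif, window 2 held 1 CCAAT match, and window 3 held 3 CANNTG and 2 CCAAT matches. In ACACB, window 1 held 2 CANNTG matches, and window 2 held 1 CANNTG and 2 CCAAT matches. The E-box CACGTG, itself a case of CANNTG, and the sterol regulatory element spelled TCACNCCAC were in 6.34% and 0.883% of all windows and in none of the 14 windows of the 8 matched genes. A match describes the letters in these windows and is not evidence of a bound site.

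On the acetate route, ACSS2, the acetyl-CoA synthetase of the cytosol and nucleus (chr20:34872146-34927962, plus strand), had 2086, 1982 and 2092 counts in vector and 2309, 2360 and 2281 in oeRNF112. Its log2 fold change was 0.09 (95% interval -0.10 to 0.28, adjusted p = 0.473). ACSS1, the mitochondrial synthetase (chr20:25006230-25058980, minus strand), had 724, 695 and 783 counts in vector and 827, 906 and 812 in oeRNF112, with a log2 fold change of 0.13 (95% interval -0.11 to 0.36, adjusted p = 0.429). Raw counts and RPKM of both synthetases were higher in all 3 oeRNF112 samples than in any vector sample, whereas the TMM-scaled values overlapped. ACSS2 was at 15.6, 15.1 and 16.1 RPKM in vector and at 17.8, 18.0 and 17.5 in oeRNF112, and ACSS1 was at 4.41, 4.31 and 4.88 against 5.19, 5.62 and 5.05.

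ME1, which oxidizes cytosolic malate to pyruvate and yields NADPH (chr6:83210389-83431071, minus strand), had the same pattern. It had 881, 911 and 852 counts in vector and 925, 955 and 1114 in oeRNF112, which gave 6.28 to 6.69 RPKM in vector and 6.87 to 8.20 in oeRNF112. Its TMM-scaled levels were 22.4 ± 0.361 and 23.95 ± 2.09 CPM and overlapped, with a log2 fold change of 0.10 (95% interval -0.12 to 0.32, adjusted p = 0.518). ACSS1, ACSS2 and ME1 were thus the 3 genes whose RPKM was higher in oeRNF112 without overlap, as were 26.1% of all genes tested. Each was higher in 16 of 16 alternative fits and was called in none of them.

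The genes that make and use malonyl-CoA had the fitted levels farthest below vector. FASN, the enzyme that builds palmitate (chr17:82078333-82098332, minus strand), had 4694, 5981 and 4954 counts in vector and 3940, 3532 and 4626 in oeRNF112. The normalized values were 119, 150 and 128 CPM in vector and 95.1, 85.9 and 109 CPM in oeRNF112. Every oeRNF112 sample lay below every vector sample, and the nearest of them were oeRNF112 replicate 3 and vector replicate 1. The log2 fold change was -0.45 (SE 0.117, 95% interval -0.71 to -0.19, edgeR adjusted p = 0.0264). FASN and ACACB were the 2 of 9 genes whose normalized values did not overlap between the groups, as did those of 36.8% of all genes tested.

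The call of FASN was close to the threshold. It was lower in 16 of 16 alternative fits (log2 fold change -0.55 to -0.33), and was called in 7 of the 15 that had been planned. With library totals the adjusted p was 0.0831, and with limma on log2(RPKM + 1) it was 0.0975. It was 0.0572 without vector replicate 1, 0.0976 without oeRNF112 replicate 1 and 0.0732 without oeRNF112 replicate 2. In RPKM, which are scaled by library totals, vector replicate 1 (13.3) and oeRNF112 replicate 3 (13.4) overlapped.

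ACACA, the cytosolic carboxylase that commits acetyl-CoA to fatty acid synthesis (chr17:37084988-37406818, minus strand), had 2759, 3321 and 2391 counts in vector and 2130, 1865 and 2637 in oeRNF112. The normalized values were 69.8, 83.0 and 62.0 CPM in vector and 51.4, 45.4 and 62.3 CPM in oeRNF112. The groups overlapped by a narrow margin, since oeRNF112 replicate 3 lay just above vector replicate 3. The log2 fold change was -0.43 (SE 0.139, 95% interval -0.74 to -0.12, adjusted p = 0.0569). ACACA was lower in 16 of 16 alternative fits and was called in 4 of the 15 that had been planned. DESeq2 gave an adjusted p of 0.0211, and edgeR gave 0.0416 without a filter on low counts, 0.0412 without vector replicate 3 and 0.0313 without oeRNF112 replicate 3. The adjusted p was 0.149 with library totals, 0.190 with limma on log2(RPKM + 1), 0.159 without vector replicate 1, 0.0948 without vector replicate 2, 0.167 without oeRNF112 replicate 1 and 0.151 without oeRNF112 replicate 2.

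ACACB, the carboxylase of the outer mitochondrial membrane, whose malonyl-CoA is known to restrain fatty acid import (chr12:109116595-109268226, plus strand), was counted 315, 379 and 330 times in vector and 271, 293 and 279 times in oeRNF112. Its means were 8.66 ± 0.762 and 6.75 ± 0.327 CPM. The log2 fold change was -0.36 (SE 0.125, 95% interval -0.64 to -0.08, adjusted p = 0.0723). ACACB was lower in 15 of 15 alternative fits and was called in 0 of the 14 that had been planned. MLYCD, which returns malonyl-CoA to acetyl-CoA (chr16:83899126-83927026, plus strand), had 243, 223 and 248 counts in vector and 207, 289 and 223 in oeRNF112. Its log2 fold change was -0.07 (95% interval -0.43 to 0.29, adjusted p = 0.797), and oeRNF112 replicate 2 stood above all other samples. Without oeRNF112 replicate 1 its value was 0.02, and it was also 0.02 with library totals. MLYCD shares 301 bases of its exons (1.86%) with AC009119.2 on the same strand.

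**Figure D2:**
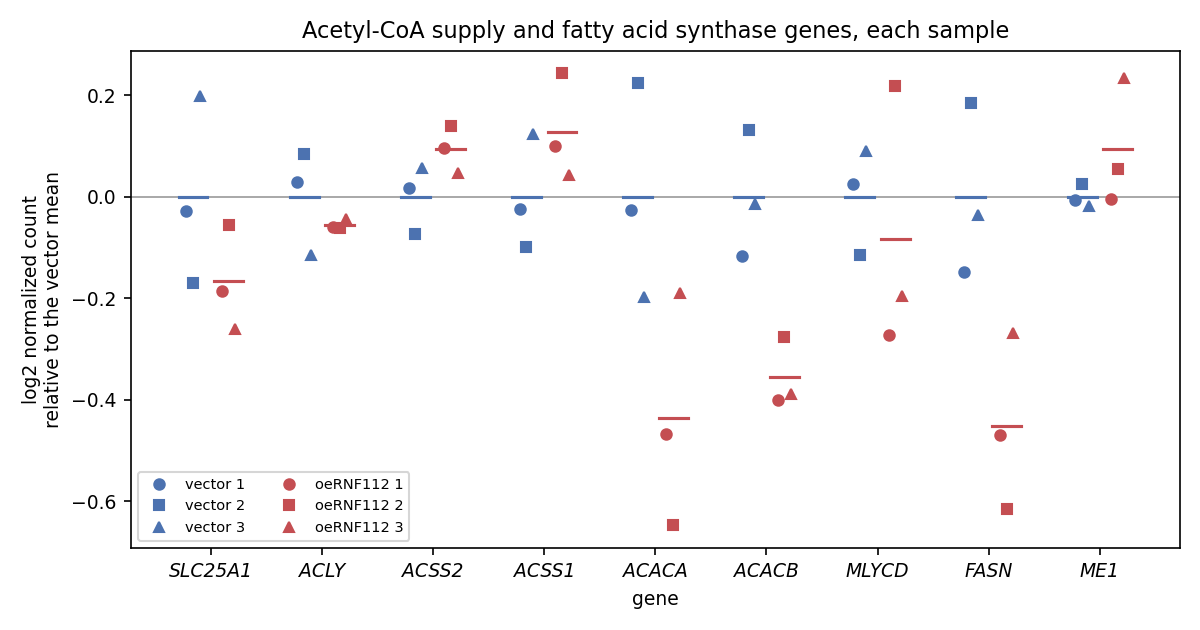
Log2 normalized count of each gene in each sample relative to the mean of the 3 vector samples, with horizontal bars at the group means. The oeRNF112 samples of FASN lie between -0.62 and -0.27 and those of ACLY between -0.06 and -0.04, inside the spread of vector.

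**Figure D3:**
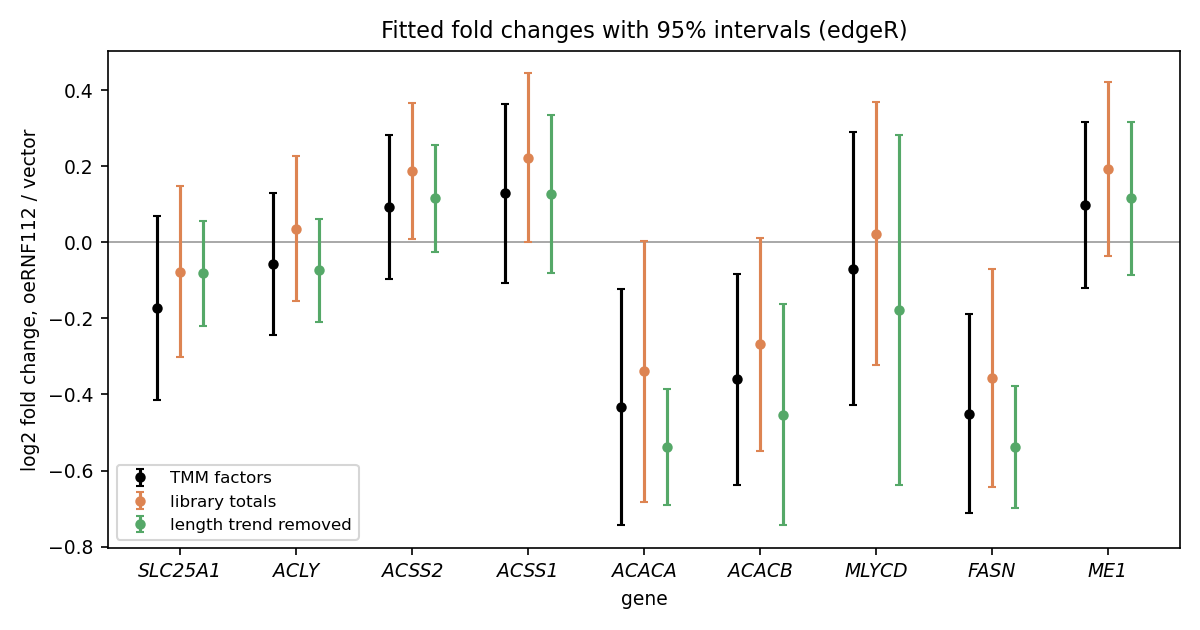
Log2 fold change of oeRNF112 over vector with 95% intervals from edgeR, with TMM factors (black), library totals (orange) and a trend with gene length removed in each sample (green). The values of FASN, ACACA and ACACB are below 0 under all 3 scalings, and ACLY changes sign with library totals.

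FASN, ACACA and ACACB are, after MLYCD at 13054 bases, the longest genes of the set, at 8531, 11427 and 10411 bases as used for RPKM, and the libraries differed in a trend with gene length. Across the 2323 genes over 8 kb, the median log2 normalized count, taken against the vector mean, stood at -0.02, 0.19 and -0.15 in vector replicates 1, 2 and 3 and at 0.10, -0.02 and 0.25 in oeRNF112 replicates 1, 2 and 3. The samples with the highest medians, vector replicate 2 and oeRNF112 replicate 3, were also those in which FASN and ACACA were highest within their groups. The other long genes did not follow this order. ACACB was highest in vector replicate 2 (9.48 CPM), but within oeRNF112 it was highest in replicate 2 (7.13 CPM). MLYCD, the longest, was lowest of the vector samples in replicate 2 (5.58 CPM) and highest of the oeRNF112 samples in replicate 2 (7.03 CPM). Between the groups, genes over 8 kb had a median of 0.10 (log2 fold change; 272 called higher and 92 lower), and the 764 genes under 1 kb a median of -0.17. Beside the median of 0.10 over 8 kb, the fitted values were -0.45 for FASN, -0.43 for ACACA, -0.36 for ACACB and -0.07 for MLYCD. A median does not bound single genes, and the part of gene length in these values was not tested.

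When the trend was removed in each sample, an alternative chosen after seeing the data, the samples of each group drew together for FASN and ACACA. For MLYCD they spread apart, in vector from between -0.11 and 0.09 to between -0.33 and 0.28, and the SE of its fold change went from 0.161 to 0.210. The oeRNF112 samples of ACACB also spread, and its SE went from 0.125 to 0.132. FASN stood at -0.13, 0.04 and 0.09 in vector and at -0.55, -0.59 and -0.46 in oeRNF112 on the log2 scale, relative to the vector mean. ACACA stood at -0.003, 0.03 and -0.02 in vector and at -0.57, -0.61 and -0.44 in oeRNF112. For ACACB the values were -0.10, -0.05 and 0.14 in vector and -0.49, -0.25 and -0.62 in oeRNF112. All 3 were called lower in this fit, at -0.54 for FASN (SE 0.0736, adjusted p = 0.00042), -0.54 for ACACA (SE 0.0694, adjusted p = 0.000292) and -0.45 for ACACB (SE 0.132, adjusted p = 0.0249), where 13.9% of all genes tested were called lower. ACLY (-0.07, adjusted p = 0.398) and MLYCD (-0.18, adjusted p = 0.561) were not called. The part of gene length in the results without this step was not tested.

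**Figure D4:**
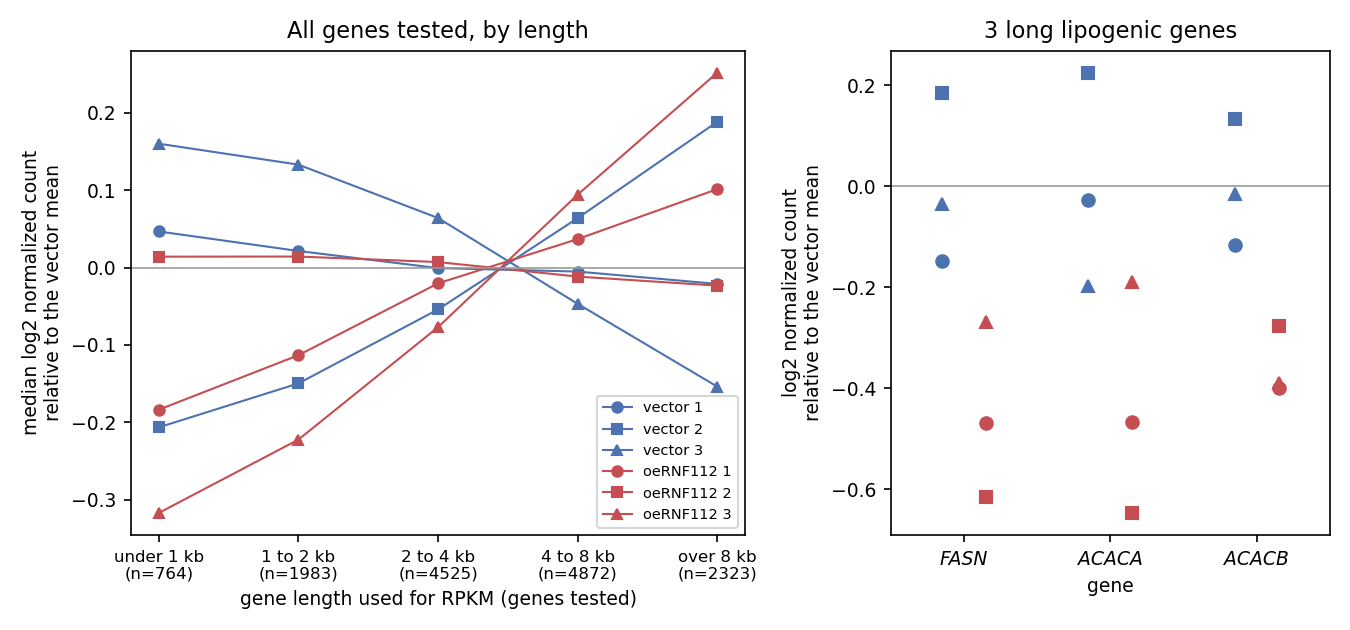
Left, median log2 normalized count relative to the vector mean for genes of 5 length classes in each sample. Right, the same quantity for FASN, ACACA and ACACB in each sample, where vector is blue, oeRNF112 is red, and circles, squares and triangles are replicates 1, 2 and 3. Genes over 8 kb were highest in oeRNF112 replicate 3 (0.25) and lowest in vector replicate 3 (-0.15).

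Ratios of RPKM within a sample do not depend on how libraries are scaled to each other. They can still carry the trend with gene length where the genes differ in length, as FASN (8531 bases) and ACLY (4555 bases) do, and this part was not tested. The ratio of FASN to ACLY was 0.201, 0.244 and 0.240 in vector and 0.171, 0.155 and 0.195 in oeRNF112. All 3 oeRNF112 ratios lay below all 3 vector ratios, and the fold between the group means on the log scale was 0.760 (two-sided exact permutation p = 0.1, the smallest that 3 samples against 3 allow). The ratio of ACSS2 to ACLY, acetate against citrate as sources of acetyl-CoA, was 0.239 ± 0.0274 in vector and 0.264 ± 0.00995 in oeRNF112 (SD, n = 3, exact permutation p = 0.3), and the groups overlapped. The ratio of ACACB to ACACA was 0.134 ± 0.0151 against 0.143 ± 0.0283 (n = 3, exact permutation p = 0.7). MLYCD to ACACA, removal against production of malonyl-CoA, was 0.0756 ± 0.0161 against 0.0982 ± 0.0329 (n = 3, exact permutation p = 0.5). A design of this size cannot reach 0.05 in these tests. None of the 4 tests could therefore pass the threshold, with or without adjustment.

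**Figure D5:**
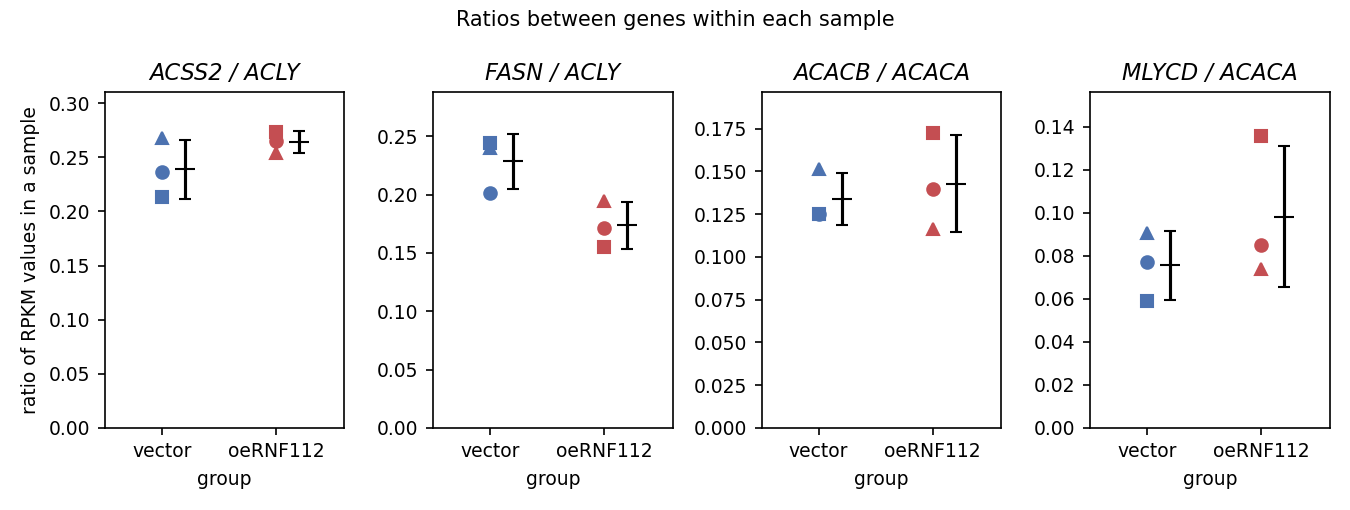
Ratio of RPKM values of gene pairs within each sample, with circles, squares and triangles for replicates 1, 2 and 3 and black bars for the mean ± SD of each group. The groups are apart for FASN to ACLY (0.228 ± 0.0237 in vector, 0.174 ± 0.0200 in oeRNF112) and overlap for the other pairs.

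Around these genes, 5 lists of the pathway were counted in the same fit, against a background of 18.1% of genes called. Over the 9 genes themselves the median log2 fold change was -0.07, beside 0.003 over all genes tested. In the list of mitochondrial citrate and acetyl-CoA supply, 2 of 23 genes rose and 5 fell, with a median of -0.06. PDK4, a kinase that inhibits pyruvate dehydrogenase, rose from 57, 82 and 48 counts to 134, 120 and 174 (log2 fold change 1.11, SE 0.235, adjusted p = 0.0111). PC, pyruvate carboxylase, which makes oxaloacetate, fell by 0.66 on the log2 scale (adjusted p = 0.0118). IDH3G and IDH3B, subunits of NAD-dependent isocitrate dehydrogenase, fell by 0.40 and 0.44 (adjusted p = 0.0238 and 0.0259). IDH3A, another subunit of this enzyme, went the other way and rose by 0.29 (adjusted p = 0.0499, just under the threshold). With library totals 4 genes of this list were called. Between 1 and 7 were called when single samples were left out. The count was 1 without vector replicate 1 or without oeRNF112 replicate 1. It was 2 without vector replicate 3 or without oeRNF112 replicate 3. Calls over all genes tested (14689 to 14774 in these fits) also varied, which holds for the lists below too. They were 1061, 3387 and 1932 without vector replicates 1, 2 and 3. Without oeRNF112 replicates 1, 2 and 3 they were 1263, 2344 and 1446, beside 2620 of 14467 with all samples.

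In the list of cytosolic NADPH and citrate handling, 0 of 11 tested genes rose and 4 fell, with a median of -0.28. TKT, transketolase of the pentose phosphate pathway, had 35643, 34932 and 36508 counts in vector and 23090, 23540 and 21610 in oeRNF112 (log2 fold change -0.73, SE 0.0880, adjusted p = 0.000754). The groups of TKT were well apart. ACO1, the cytosolic aconitase, fell by 0.64 (adjusted p = 0.000931), and MTHFD1, an enzyme of folate metabolism, by 0.38 (adjusted p = 0.0109). Without vector replicate 1 or without oeRNF112 replicate 1, 2 genes of this list were called. With the length trend removed, 1 gene of this list rose and 5 fell, with a median of -0.19, where 4132 of all 14467 genes tested were called.

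Among 20 tested genes that control lipogenic transcription or enzyme activity, 0 rose and 3 fell, with a median of -0.10. SREBF1, the SREBP gene best known for driving FASN and ACACA, had 1304, 1370 and 1501 counts in vector and 1087, 941 and 1031 in oeRNF112 (log2 fold change -0.53, SE 0.103, adjusted p = 0.00757). PRKAG1 and PRKAB1, subunits of the AMP-activated kinase that phosphorylates both acetyl-CoA carboxylases, fell by 0.57 and 0.34 (adjusted p = 0.00431 and 0.0415). PRKAA2, a catalytic subunit of the same kinase, was at 0.51 (adjusted p = 0.0579). DESeq2 called 5 genes of this list. When single samples were left out, 6 were called without vector replicate 2, 4 without oeRNF112 replicate 2 and 2 in each of the other 4 fits. MLXIPL and THRSP did not pass the filter, with 4 counts or fewer per sample.

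Of 15 other lipogenic enzymes tested, 1 rose and 4 fell, with a median of -0.02. SCD, which desaturates the products of FASN, had 11550, 12973 and 10662 counts in vector and 8165, 6655 and 7967 in oeRNF112 (log2 fold change -0.71, SE 0.102, adjusted p = 0.0019). ELOVL6, which elongates palmitate, fell by 0.47 (adjusted p = 0.0115), and GPAM, which starts glycerolipid synthesis, by 0.49 (adjusted p = 0.0213). ACSL3, an acyl-CoA synthetase, rose by 0.36 (adjusted p = 0.0270). With library totals 3 were called, as without vector replicate 3 or without oeRNF112 replicate 3, and 1 was called without vector replicate 1 or without oeRNF112 replicate 1.

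Mitochondrial fatty acid synthesis, a separate pathway with its own single-function enzymes, gave 0 calls among 11 tested genes with edgeR and 0 with DESeq2, and 0 genes had an unadjusted p under 0.05 in either. The median log2 fold change was -0.14. The smallest p-values belonged to MECR (-0.30, adjusted p = 0.171), MCAT (-0.26, adjusted p = 0.190), LIPT2 (-0.68, adjusted p = 0.202) and ACSF3 (-0.17, adjusted p = 0.284).

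Over the 6 samples, the genes whose centred log2 CPM lay nearest to FASN among 11565 genes with a mean count of at least 100 were USP43 (root mean square difference 0.0355), DAG1 (0.0419) and DLG5 (0.0565). FASN itself had a root mean square deviation of 0.265. Those nearest to ACLY were MTPAP (0.0189), FAM114A1 (0.0220) and SMAD4 (0.0225), beside a deviation of 0.0654 for ACLY itself.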

How the data were processed

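RNA from 6 samples of T24 cells was prepared with a stranded mRNA kit. The authors deposited read counts per gene, without normalization, and RPKM values, which equalled counts divided by library total and 1 gene length for 23152 of 23152 genes, within a tolerance of 0.0001. The submitters' processing notes name GRCh38, Trimmomatic 0.36, featureCounts and Subread 1.5.1, whereas the aligner and the annotation release are not given in the sources used here. The study ran gene set enrichment on these data and names no test for single genes of the RNA sequencing.

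Samples were grouped by the labelled treatment. Counts were fitted with edgeR 4.0.16 in R 4.3.3 (filterByExpr, TMM factors, quasi-likelihood test), and p-values were adjusted by Benjamini-Hochberg over all 14467 genes tested, with a threshold of 0.05. CPM refer to counts of the genes tested and TMM factors. Alternatives used DESeq2 1.42.0, limma 3.58.1 on log2(RPKM + 1) and log2(RPKM + 0.1), other scalings and filters, a replicate block, fits without each sample and, added after seeing the data, removal of a smooth trend with gene length (span 0.3) from each sample. Ratios were compared with two-sided exact permutation tests. The scripts were tested on simulated counts with known changes. There, 99 of 14307 genes held a log2 change of 0.5 and 94 held a change of 1. In that setting edgeR recovered 23.2% of log2 changes of 0.5 and 83.0% of changes of 1, and 11 of its 112 calls were false. DESeq2 recovered 40.4% of the changes of 0.5, with 23 false among 141 calls. The simulated counts held no trend with gene length, so the removal of such a trend was not tested on one. Recovery where a larger share of genes changes was not tested either.

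The genes and lists were chosen with earlier results of these data known. Named from each list were at most 4 genes with the smallest p-values, together with RNF112, cell type markers and, for FASN and ACLY, the 3 genes with the nearest pattern, and 1 result under this rule is not reported here. KRT7, KRT8, KRT18, EPCAM, PDGFRA, CD68, LAPTM5 and PTPRC were singled out from the markers after their values were seen. IDH3A was named beyond the 4 genes of its list, also after its value was seen. At these depths a count of 0 allows up to 3 reads, or a CPM of 0.0727 to 0.0749, for counting error only. No 2 samples were copies of each other.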

Additional observations from a re-analysis of the deposited data

How the results depend on the processing

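Of the 9 genes, FASN was called in the reported fit, giving 1 call. There were 2 with DESeq2 or without a filter on low counts (FASN and ACACA), 3 with the trend with gene length removed, and 0 with library totals, the replicate block, limma on log2(RPKM + 1), on log2(RPKM + 0.1) or after a filter on mean RPKM (at least 1), where 7 of the 9 were tested. Leaving out single samples gave between 0 and 2. Over all 14467 genes tested, 2620 were called in the reported fit, 3243 with DESeq2, 4132 with the length trend removed and 2679 with library totals. Without a filter on low counts, 2587 of 23152 were called. The limma fits called 2532 and 2601 of 14467, and 2042 of 11128 after the filter on mean RPKM. ACLY reversed to 0.0355 with library totals and to 0.0380, 0.0385 and 0.0380 in these limma fits, and MLYCD (-0.225 to 0.0231 when single samples were left out) to 0.0227 with library totals, 0.00569 and 0.00976 with limma and 0.0231 without oeRNF112 replicate 1, all without a call, and the cause was not tested.

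The count over all genes was 2620. It was 876 with the replicate block (618 higher and 258 lower), 4132 with the length trend removed and between 1061 (without vector replicate 1) and 3387 (without vector replicate 2) when single samples were left out. Nothing in the labels or the study says that a number marks a shared batch or day, so same-numbered samples were not treated as pairs. Their deviations from the group means correlated at -0.116, -0.363 and -0.296. With the block, FASN was at -0.45 (adjusted p = 0.118) and ACACA at -0.44 (adjusted p = 0.183), and the block left 1 call in mitochondrial supply, 2 in cytosolic NADPH, 1 in the control list and 1 among the other lipogenic enzymes. For these lists the block and the length trend were alternatives chosen after seeing the data.

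With library totals the mitochondrial supply list had 4 calls and the other lipogenic enzymes 3, and the control list had 5 with DESeq2. With the length trend removed the control list had 9 calls (3 higher and 6 lower), mitochondrial supply 8, cytosolic NADPH 6 and the other lipogenic enzymes 5. Leaving out single samples gave 1 to 7 for mitochondrial supply, 2 to 6 for cytosolic NADPH, 2 to 6 for the control list and 1 to 5 for the other lipogenic enzymes. The log2 difference of the ratio of ACACB to ACACA (0.08) went from -0.0678 (without oeRNF112 replicate 2, where it reversed) to 0.217. The other ratios kept their direction in every alternative run. With 3 samples a group, the intervals limit what can be seen: that of MLYCD, which had 207 to 289 counts a sample, ran from -0.43 to 0.29.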
